A study of Mus musculus with 12 samples.

Results

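The genes described here are 10 mouse genes that modify and activate long chain fatty acids. They are the stearoyl-CoA desaturases Scd1 and Scd2, the front-end desaturases Fads1 and Fads2, the elongases Elovl1, Elovl5 and Elovl6, and the long chain acyl-CoA synthetases Acsl1, Acsl3 and Acsl4. They were taken by gene name from an expression table of neural stem and progenitor cells (NSPCs), with earlier results of these data known, and all 10 were found among its 16106 genes. RNA was sequenced from neurospheres, free-floating clusters of NSPCs, grown from the cerebral cortex of C57BL/6 mouse embryos at day 14.5 and used at passage 3. The cells of 3 female and 3 male embryos were kept with vehicle (phosphate-buffered saline) or with 10 μM pravastatin for 24 hours, which gave 12 libraries in 4 groups of 3 (female vehicle, female pravastatin, male vehicle and male pravastatin). The labels name no transgene or deletion in any group. Pravastatin is a hydrophilic statin, a drug that blocks cholesterol synthesis at an early step.

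Fatty acids enter most reactions only after an acyl-CoA synthetase has joined them to coenzyme A, which is what the Acsl enzymes do. The Scd enzymes place the first double bond in saturated acyl-CoAs, the Fads enzymes place further double bonds closer to the carboxyl end of polyunsaturated chains, and the Elovl enzymes carry out the condensation that begins each round of lengthening by a pair of carbons. Many of these genes are known targets of the sterol regulatory element binding proteins (SREBPs), transcription factors that are released from the endoplasmic reticulum when its membranes are low in cholesterol. SREBPs act at promoters together with NF-Y, which binds the CCAAT box, and Sp1, which binds GC-rich boxes.

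Of the 10 genes, 7 had promoters among the 32851 RefSeq promoters of GRCm38.p6, each running from 250 bases before to 50 bases after a start site. Scd1, Scd2 and Fads1 did not match. The 200 bases before the RefSeq start are shown for 4 genes that rose with pravastatin and for the one that did not pass the test, Acsl1 (second of its 2 start sites), to set promoters of genes that moved together beside one of a gene that was not called. They are Fads2 (chr19:10101504-10101703, minus strand), Elovl5 (chr9:77917165-77917364, plus strand), Elovl6 (chr3:129532186-129532385, plus strand), Acsl3 (chr1:78657625-78657824, plus strand) and Acsl1 (chr8:46490766-46490965, plus strand). Each is written 5′ to 3′ on the strand of the gene. Capitals mark matches, on either strand, to TCACNCCAC (a loose form of the sterol regulatory element), CCAAT and CACGTG (an E-box).
Fads2: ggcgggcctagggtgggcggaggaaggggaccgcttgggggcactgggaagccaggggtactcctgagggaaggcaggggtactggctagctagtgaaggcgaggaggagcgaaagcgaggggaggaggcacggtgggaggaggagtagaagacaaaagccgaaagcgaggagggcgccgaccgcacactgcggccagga
Elovl5: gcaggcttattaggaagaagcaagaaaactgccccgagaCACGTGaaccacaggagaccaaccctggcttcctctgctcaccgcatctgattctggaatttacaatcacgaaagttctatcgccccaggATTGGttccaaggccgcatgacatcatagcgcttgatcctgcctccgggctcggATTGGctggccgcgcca
Elovl6: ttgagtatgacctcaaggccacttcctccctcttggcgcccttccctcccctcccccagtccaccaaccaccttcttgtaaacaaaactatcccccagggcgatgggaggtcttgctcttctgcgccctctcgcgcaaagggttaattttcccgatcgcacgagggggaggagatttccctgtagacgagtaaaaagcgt
Acsl3: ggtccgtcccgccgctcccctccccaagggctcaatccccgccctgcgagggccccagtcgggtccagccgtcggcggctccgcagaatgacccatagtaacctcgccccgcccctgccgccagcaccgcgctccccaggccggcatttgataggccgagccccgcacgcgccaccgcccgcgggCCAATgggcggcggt
Acsl1: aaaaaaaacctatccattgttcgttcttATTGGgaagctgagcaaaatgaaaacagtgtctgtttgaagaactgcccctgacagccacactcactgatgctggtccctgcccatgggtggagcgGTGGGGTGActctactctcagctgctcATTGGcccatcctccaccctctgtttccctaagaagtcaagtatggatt

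Motifs were searched on both strands over the 9 promoters of the 7 genes, since Acsl1 and Elovl1 have 2 each. TCACNCCAC was found in 1 of the 9, that of Acsl1, on the minus strand 76 bases before the second start, and in 1.24% of all promoters. CCAAT was present in 4 of the 9 promoters, 1 each of Acsl1, Acsl3, Elovl1 and Elovl5, and in 37.4% of all promoters. It lay 15 bases before the start in Acsl3 and, on the minus strand, 71 and 17 bases before it in Elovl5. GGGCGG, the Sp1 box, was present in 6 of the 9, those of Acsl3, Acsl4 and Fads2, the first of Acsl1 and both of Elovl1, and in 35.7% of all promoters. CACGTG occurred in Elovl5 alone, 161 bases before the start, and in 7.15% of all promoters. The shown stretches of Elovl6 and Fads2 held none of the motifs in capitals. The first promoter of Acsl1, which lies at the annotated start of the gene and is not shown, also held none of them. The shown stretch of Acsl1 belongs to a start site inside the gene.

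The values are normalized read counts, which are reads divided by an effective library size, so that each library sums to between 962669 and 1052479. For every sex and replicate number the sum was higher with pravastatin than with vehicle. When each library was rescaled to the same sum, the median log2 change of all genes tested went from -0.008 to -0.068. The 12 libraries held 13353619 to 18422845 reads over the listed genes, so that 3 reads correspond to a value of 0.157 to 0.228, and the 10 genes rested on 115 reads (the lowest of Acsl1) to 95936 reads (the highest of Scd2) per library. The 6 markers of neural stem cells and radial glia were all in the table, at a summed value of 6408 to 7687 with vehicle and 6371 to 7826 with pravastatin. None of 5 microglial and none of 4 adipocyte markers was listed. Female cultures 2 and 3 stood apart with either treatment, with Gfap, an astrocyte filament protein, at 69.3 to 507 against 3.96 to 8.31 in the other 4 cultures, Mbp, a myelin protein, at 24.7 to 91.2 against 0.895 to 2.66, and Ccnd1, a G1 cyclin, at 217 to 974 against 1218 to 1431. The calls of the 10 genes are also given without those cultures, and for some values these cultures are listed apart. Vehicle and pravastatin libraries of the same sex and number were read as 1 culture, a pairing that the labels do not state and that is least certain for female culture 3.

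With pravastatin 9 of the 10 genes rose and none fell. Over both sexes the 9 were called higher at an adjusted p below 0.05 (limma, Benjamini-Hochberg over 15093 genes), and all 9 were above 1.5-fold. Among all genes tested 2.69% were called higher, 0.311% were called lower, and 1.54% were called higher and above 1.5-fold. The share of calls that were higher was 89.6%, and 68.7% when each library was rescaled to the same sum. It was 56.3% with culture as a block and 52.4% without female cultures 2 and 3. The same 9 genes were called in each of these fits. The median log2 change of the 10 genes was 1.00, against -0.01 over all genes tested. In 8 of the 10 every pravastatin value lay above every vehicle value, which was so in 2.25% of all genes. The exceptions were Acsl1 and Acsl4. RNA was measured in whole cultures, so more cells of a type and more RNA per cell cannot be told apart. Whether the paired libraries were prepared at one time is not given in the sources used here, so a difference in preparation cannot be told apart from the treatment either.

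**Figure D1:**
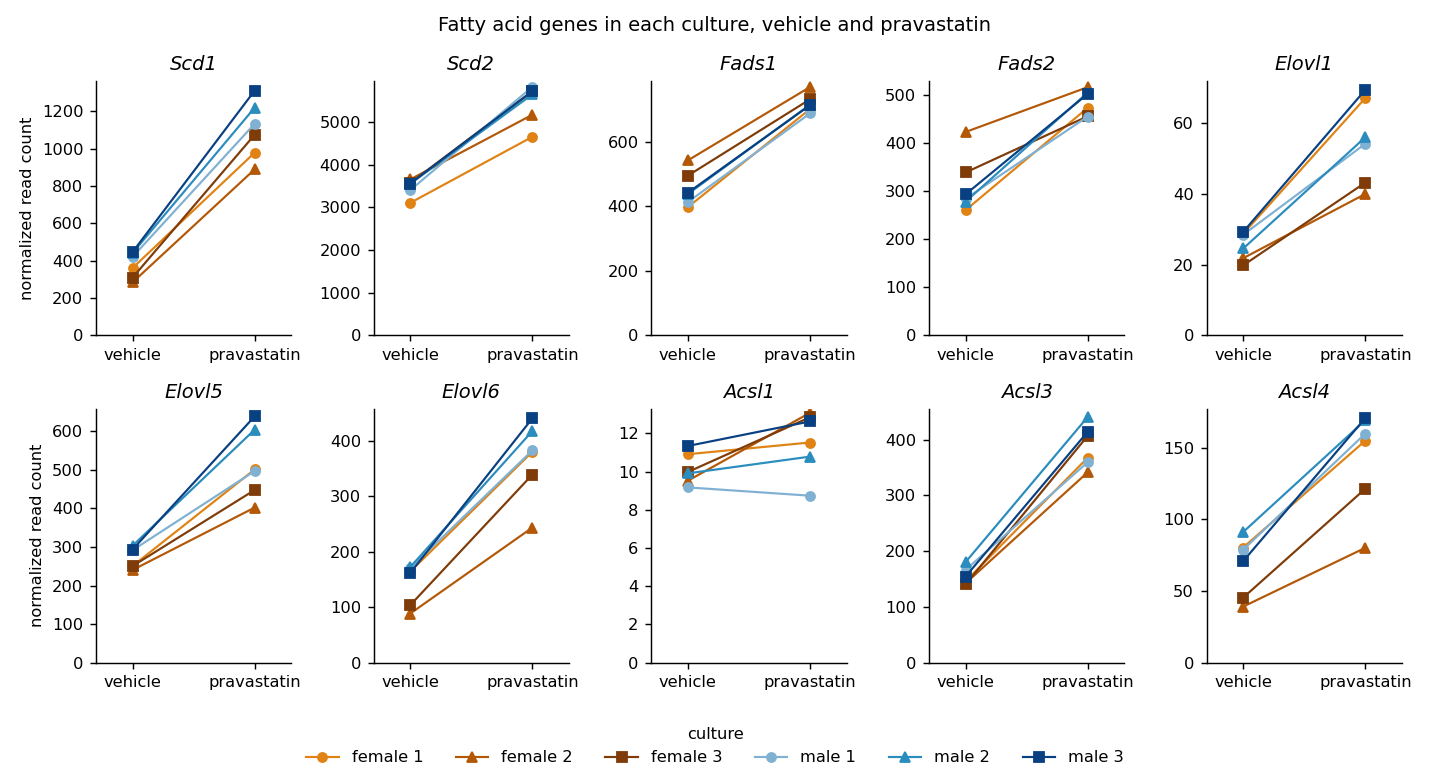
Normalized read count of each of the 10 genes (vertical axes, starting at 0) with vehicle and with pravastatin, with a line for each of the 6 cultures. Lines rise in all 6 cultures for every gene but Acsl1, where male culture 1 went from 9.17 to 8.74.

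Scd1 had the largest change of the 10 and Scd2 the highest values. Scd1 is the stearoyl-CoA desaturase of liver and fat, and Scd2 is the form that predominates in brain. Scd1 stood at 360, 283 and 308 in female cultures 1 to 3 and at 420, 441 and 445 in the male cultures with vehicle. With pravastatin it stood at 979, 890 and 1075 in the female and at 1134, 1221 and 1312 in the male cultures. Every pravastatin value of Scd1 was above every vehicle value, and the male cultures were above the female ones with either treatment. The fold within a culture was 2.70 to 3.49, and the log2 change was 1.56 (SE 0.07, adjusted p = 2.21e-07, limma), the 37th largest rise of the genes tested.

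Scd2 values were 3104, 3655 and 3572 in females and 3401, 3553 and 3558 in males with vehicle. They were 4655, 5173 and 5722 in females and 5829, 5653 and 5727 in males with pravastatin. The groups of Scd2 did not overlap, and each culture rose by 1.42-fold to 1.71-fold. Its log2 change was 0.65 (SE 0.08, adjusted p = 0.000268, limma). The rise of Scd1 was larger than that of Scd2 in 6 of 6 cultures. The difference of their log2 changes was 0.91, with an exact interval of 0.66 to 1.15 (two-sided sign-flip permutation test over cultures, exact p = 0.03125, the smallest that 6 cultures allow, adjusted p = 0.0417 over 8 pairs).

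Per kilobase of exon, Scd2 nevertheless remained the main form. With vehicle Scd1 made up 10.8% ± 1.91 (SD, n = 6) of the summed Scd1 and Scd2 level per kilobase, and with pravastatin 18.4% ± 1.55 (SD, n = 6). The highest vehicle share was 12.3% and the lowest pravastatin share was 16.1%, so the shares did not overlap. Both genes lie on chromosome 19 of GRCm38, Scd2 at 44293674 to 44306864 on the plus strand and Scd1 at 44394455 to 44407879 on the minus strand. The longest Scd1 transcript matched a transcript of Scd2 over 1261 bases at 86.8% identity. The longest Scd2 transcript matched a processed transcript of Scd1 over 623 bases at 95.5% identity. These stretches come from separate searches and may overlap. The default counting leaves out reads that align to several places, so some reads of the shared stretches may be missing. Scd4, in the same cluster, was near the limit of detection, at a mean of 0.632 ± 0.295 (SD, n = 6) with vehicle and 1.17 ± 0.370 with pravastatin.

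Fads1 and Fads2 rose together and by like amounts. Fads1 is the delta-5 desaturase and Fads2 the delta-6 desaturase, which act in turn on the way to arachidonic and docosahexaenoic acid. Fads1 values were 397, 543 and 495 in females and 413, 438 and 442 in males with vehicle, and 702, 770 and 732 in females and 688, 716 and 714 in males with pravastatin. Fads2 values were 260, 423 and 339 in females and 284, 278 and 293 in males with vehicle, and 473, 516 and 456 in females and 455, 505 and 502 in males with pravastatin. The groups of both genes did not overlap, but the highest vehicle values came from female cultures 2 and 3. Fads1 changed by 0.67 on the log2 scale (SE 0.07, adjusted p = 8.94e-05, limma), at 1.42-fold to 1.77-fold per culture. Fads2 changed by 0.65 (SE 0.10, adjusted p = 0.00233, limma), at 1.22-fold to 1.82-fold, lowest in female culture 2.

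The changes of Fads1 and Fads2 could not be told apart. Their difference was 0.02, with an exact interval of -0.15 to 0.22, and Fads1 rose more in 3 of 6 cultures (exact sign-flip permutation p = 0.75). Per kilobase of annotated exon, their levels with vehicle were 94.5 ± 11.3 for Fads1 and 95.0 ± 18.2 for Fads2 (SD, n = 6). With pravastatin they were 150 ± 5.92 and 147 ± 8.11. The exon length used was 4812 bases for Fads1 and 3295 for Fads2, against 3460 and 3150 in their longest transcripts. On the latter lengths Fads1 would stand above Fads2, so the likeness depends on the length used. The pair lie head to head on opposite strands of chromosome 19, Fads2 at 10062765 to 10101746 (minus) and Fads1 at 10182888 to 10196877 (plus). Fads3, the third gene of this cluster, held 1.32% of the summed Fads level per kilobase with vehicle and 1.47% with pravastatin. It rose by 0.79 (SE 0.16, adjusted p = 0.0186, limma), from 9.81 ± 3.14 to 16.8 ± 1.86 (SD, n = 6). Fads3 moved least in female cultures 2 and 3, by 0.26 and 0.15, against 0.79 to 1.22 in the other 4.

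All of Elovl1, Elovl5 and Elovl6 rose. Elovl6 had the largest mean change, but its difference from Elovl1 did not pass the test. Elovl6 lengthens palmitate and similar saturated and monounsaturated chains, Elovl5 acts on polyunsaturated chains, and Elovl1 makes very long saturated and monounsaturated chains. Elovl6 stood at 164, 88.7 and 104 in females and 170, 172 and 162 in males with vehicle. It stood at 381, 244 and 339 in females and 383, 418 and 441 in males with pravastatin. The values of female cultures 2 and 3 were the lowest with either treatment, and yet their folds were not the smallest. Elovl6 changed by 1.37 (SE 0.14, adjusted p = 7.08e-05, limma), at 2.25-fold to 3.27-fold per culture.

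Elovl5 ran from 240 to 303 with vehicle and from 402 to 639 with pravastatin, and rose by 1.67-fold to 2.18-fold per culture. Its log2 change was 0.91 (SE 0.07, adjusted p = 8.58e-06, limma). Elovl1, the least abundant of the 3, ran from 19.8 to 29.3 with vehicle and from 40.0 to 69.5 with pravastatin, at 1.83-fold to 2.38-fold per culture. Its log2 change was 1.08 (SE 0.13, adjusted p = 0.000310, limma). The groups of both genes were clear of each other.

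Of the elongase pairs, 2 of 3 passed the test of the difference. Elovl6 changed more than Elovl5 by 0.47 (interval 0.21 to 0.87), and Elovl1 more than Elovl5 by 0.18 (0.11 to 0.27), both in 6 of 6 cultures with an exact sign-flip permutation p of 0.03125 and an adjusted p of 0.0417. Elovl6 and Elovl1 differed by 0.29 (interval -0.002 to 0.60), in 5 of 6 cultures, with an exact permutation p of 0.0625 (adjusted p = 0.0714). The exception was female culture 1, in which both rose by 1.21. With a pseudocount of 1 in place of 0.5 the exact permutation p of that pair was 0.03125. Elovl6 outdid Elovl5 by most in female cultures 2 and 3, at 0.71 and 0.87, against 0.21 to 0.40 in the other 4. Its lead over Elovl1 was also largest in those cultures, at 0.59 and 0.60, against -0.002 to 0.25 in the other 4.

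Per kilobase, Elovl5 was the main elongase with either treatment, with vehicle at 77.1 ± 7.76 and under pravastatin at 146 ± 25.7 (SD, n = 6). Among the 5 Elovl genes compared, it held 56.2% ± 2.51 of the level with vehicle and 57.8% ± 1.61 with pravastatin. The share of Elovl6 went from 16.0% ± 2.73 to 22.5% ± 1.62, and the highest vehicle share, 18.7%, lay below the lowest pravastatin share, 19.5%. Shares of Elovl2 and Elovl4 went from 8.85% to 4.99% and from 12.2% to 6.65% while their own levels per kilobase were 12.2 and 16.6 with vehicle and 12.6 and 16.4 with pravastatin. Elovl2, an elongase of long polyunsaturated chains, had a log2 change of 0.04 (SE 0.10, adjusted p = 0.872, limma), and Elovl4, which makes very long chains in retina and brain, one of -0.02 (SE 0.05, adjusted p = 0.871). Elovl3 was below the filter for the fit over both sexes, at a mean of 0.523 with vehicle and 0.918 with pravastatin, and in males it was not called, at 0.60 (SE 0.20, adjusted p = 0.0826, limma). The change of Elovl7 was poorly measured, at 0.13 (SE 0.42, adjusted p = 0.909, limma).

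Elovl6 lies on chromosome 3 of GRCm38 at 129532355 to 129638495, Elovl5 on chromosome 9 at 77917364 to 77984519 and Elovl1 on chromosome 4 at 118428093 to 118432953, all on the plus strand. A processed pseudogene, Gm11295, matches 805 bases of the Elovl6 transcript at 97.4% identity and was named here after its values were seen. Its values rose with those of Elovl6, by 1.36 (SE 0.14, adjusted p = 7.24e-05, limma), from 2.04 ± 0.655 to 5.93 ± 1.31 (SD, n = 6). HTSeq was run with its defaults, which leave out reads aligned to several places, so reads that match both would be missing from both. The values of Gm11295 were small beside those of Elovl6.

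Among the synthetases, Acsl3 and Acsl4 rose and Acsl1 did not pass the test. Acsl1 is the main synthetase of liver, fat and muscle, Acsl3 sits on the endoplasmic reticulum and on lipid droplets, and Acsl4 prefers arachidonic acid. Acsl3 values were 146, 142 and 140 in females and 166, 180 and 155 in males with vehicle. They were 368, 342 and 407 in females and 360, 441 and 414 in males with pravastatin. The gap between the highest vehicle and the lowest pravastatin value was wider than the spread within either. Acsl3 changed by 1.32 (SE 0.07, adjusted p = 2.64e-07, limma), at 2.16-fold to 2.90-fold per culture, and had the fifth smallest p of the genes tested, with Scd1 the third.

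Acsl4 stood at 80.4, 39.2 and 45.4 in females and 78.9, 91.3 and 71 in males with vehicle. It stood at 155, 80.2 and 122 in females and 160, 169 and 171 in males with pravastatin. Female cultures 2 and 3 were lowest with either treatment, and pravastatin in female culture 2 (80.2) was below vehicle in male culture 2 (91.3). Within each culture Acsl4 still rose, by 1.85-fold to 2.67-fold. Its log2 change was 1.09 (SE 0.18, adjusted p = 0.00342, limma).

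Acsl1 was low, at 10.9, 9.52 and 9.98 in females and 9.17, 9.91 and 11.3 in males with vehicle. With pravastatin it was 11.5, 13.1 and 12.8 in females and 8.74, 10.8 and 12.6 in males. The groups overlapped, and 5 of 6 cultures were higher. Its log2 change was 0.18 with a 95% interval of -0.04 to 0.40 (adjusted p = 0.411, limma), which does not show that it was unaltered. With culture as a block the interval lay just above 0, at 7.3e-05 to 0.35 (adjusted p = 0.148, limma). Within the sexes the block gave 0.02 to 0.55 in females and -0.17 to 0.31 in males. Acsl1 was not called in either sex or under any alternative tried, with a log2 change of 0.07 to 0.25 over both sexes. In males its change was 0.07, and it was -0.05 without pravastatin replicate 3.

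**Figure D2:**
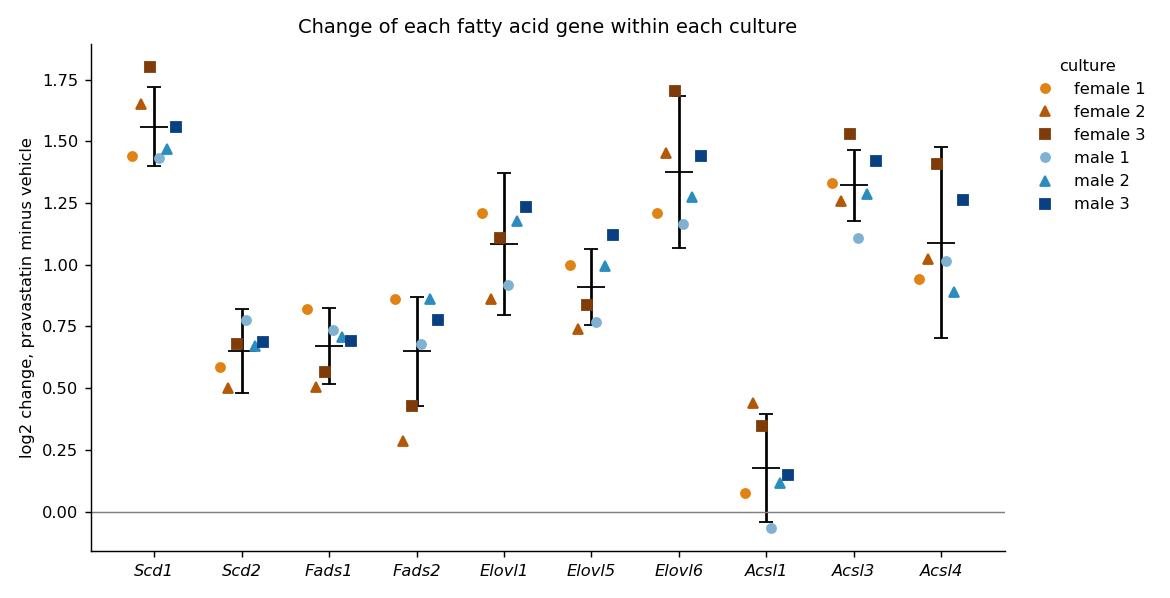
Log2 change, pravastatin minus vehicle, of each of the 10 genes within each of the 6 cultures (points), with the mean and 95% interval of the limma fit over both sexes (bars). Scd1 has the highest mean (1.56) and, in this fit without the culture block, Acsl1 (0.18) is the one gene whose interval includes 0.

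**Figure D3:**
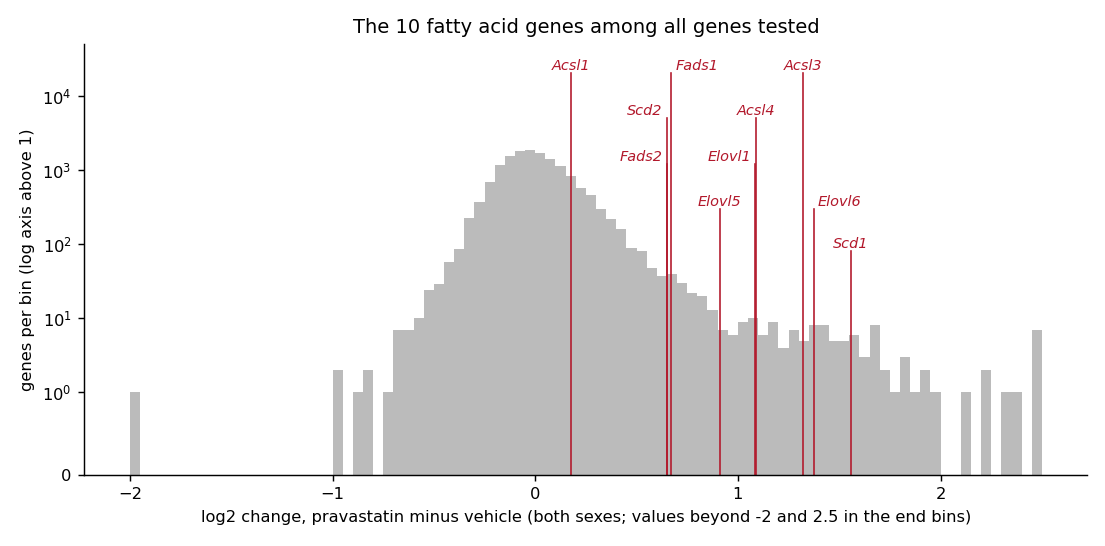
Log2 change of the 15093 genes tested, as genes per bin (grey, logarithmic vertical axis above 1), with red lines at the 10 fatty acid genes. Most genes lie about 0 and 9 of the 10 genes lie at 0.65 or above.

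The 3 synthetases differed from each other in every culture. Acsl3 rose more than Acsl1 by 1.15 (interval 0.82 to 1.27), Acsl4 more than Acsl1 by 0.91 (0.59 to 1.11) and Acsl3 more than Acsl4 by 0.23 (0.09 to 0.40). Each of these had an exact sign-flip permutation p of 0.03125 and an adjusted p of 0.0417. Over all 4 families 6 of the 8 pairs passed. All of those that passed had the smallest exact p that 6 cultures allow, and their adjusted p depends on how many pairs reach it. Pairs within a family also share genes, so the passes are not independent of each other.

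**Figure D4:**
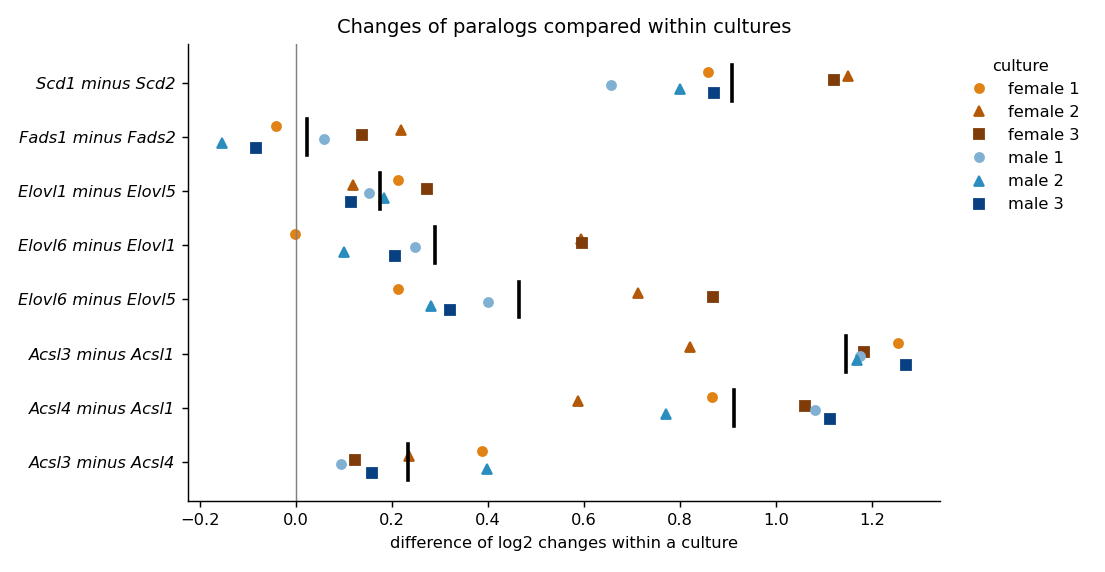
Difference between the log2 changes of 2 paralogs within each culture (points) and its mean over the 6 cultures (black bars). All 6 points lie to the right of 0 for 6 pairs, and the points of Fads1 minus Fads2 lie on either side of it.

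Per kilobase Acsl3 was the main form of the 5 Acsl genes, with 62.2% ± 3.68 of the level with vehicle and 71.3% ± 3.52 under pravastatin (SD, n = 6). Acsl4 held 21.4% ± 4.33 and 20.9% ± 3.84, and Acsl1 held 1.71% and 0.897%. The exon length used for Acsl1 was 10483 bases, against 5676 in its longest transcript, so its share may be understated. For Acsl3 these lengths were 4357 and 3950 bases. The remaining paralogs had small changes that were not called. Acsl5, of intestine and liver, changed by 0.06 (SE 0.19, adjusted p = 0.906, limma), and Acsl6, of brain, by -0.02 (SE 0.15, adjusted p = 0.956). Acsl1 lies on chromosome 8 of GRCm38 at 46471037 to 46536051 (plus), Acsl3 on chromosome 1 at 78657825 to 78707743 (plus) and Acsl4 on chromosome X at 142317993 to 142390535 (minus).

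Utp14b, a gene of ribosome assembly that overlaps the start of Acsl3 on the same strand and shares 207 identical bases with it, was named after its values were seen. Utp14b rose by 1.28 (SE 0.14, adjusted p = 0.000153, limma), from 77.3 ± 19.2 to 189 ± 50.7 (SD, n = 6). Reads in the shared stretch cannot be assigned to one of the genes, and the default counting leaves out ambiguous reads, so both values carry that uncertainty.

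The 9 genes rose in both sexes, and no sex difference was detected. In males 9 of the 10 were called higher, against 6.08% of all genes, with log2 changes from 0.71 (Scd2 and Fads1) to 1.49 (Scd1). In females 2 of the 10 were called, Scd1 (1.63, adjusted p = 0.0348) and Acsl3 (1.37, adjusted p = 0.0242), against 0.0724% of all genes. None of the 10 was called in females when pravastatin replicate 1, or either library of female culture 2 or 3, was left out. With culture as a block 9 were called in females, against 1.95% of all genes, the highest adjusted p of the 9 being 0.0452 for Fads2 (limma). Over both sexes the block called the same 9, against 10.5% of all genes called higher. The interaction of sex and treatment called 0 of the 10 and 0% of 15765 genes (limma, 138 at an unadjusted p below 0.05, and 0 called by edgeR and DESeq2). With culture as a block it called 0, with 1145 at an unadjusted p below 0.05. When nothing differs, a share of 0.05 is expected there. The 138 were fewer than that and the 1145 more, so the lack of calls does not show that the sexes respond alike. The male change minus the female change ran from -0.22 (Acsl1) to 0.25 (Fads2), and the widest 95% interval, that of Acsl4, was -0.89 to 0.75, or -0.34 to 0.20 with the block.

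In vehicle, female cultures 2 and 3 were below the other 4 for Scd1, Elovl1, Elovl5, Elovl6, Acsl3 and Acsl4, and above them for Scd2, Fads1 and Fads2. The separation was very narrow for Elovl5 (250.5 in female culture 3 against a lowest value of 250.7 in the other 4) and for Scd2 (3572 in female culture 3 against a highest value of 3558). It was also narrow for Acsl3 (142 in female culture 2 against a lowest value of 146). With pravastatin they stayed below for Elovl1, Elovl5, Elovl6 and Acsl4, and above for Fads1. The other genes overlapped, except Acsl1, for which they were above (13.1 and 12.8 against 8.74 to 12.6). These are the cultures with high Gfap and Mbp and low Ccnd1, and the part of cell composition in these levels was not tested. The rise with pravastatin was as widespread without them, since the same 9 genes were called when both cultures were left out. The 6 astrocyte markers, at a summed 265 to 1487 with vehicle and 276 to 1560 with pravastatin, gave 0 calls for treatment, and with culture as a block Slc1a2 was higher (0.24) and Gja1 lower (-0.33). Of the 6 neuronal markers 1 was called, Snap25, with summed values of 29.0 to 73.7 and 69.5 to 87.7, and with the block 3 were higher, Snap25 (2.22), Syt1 (0.97) and Tubb3 (0.38). The 6 proliferation markers (1009 to 3110 with vehicle, 1109 to 2928 with pravastatin) and the 6 stem cell markers gave 0 calls, and with the block 3 of the former (Ccnb1, Mcm2 and Top2a, at -0.33, -0.31 and -0.21) and 2 of the latter (Hes5 and Fabp7, at -0.50 and -0.27) were lower. These marker counts stand beside 2.69% of all genes called higher and 0.311% called lower, and with the block beside 10.5% and 8.13%. The part of these markers in the results was not tested.

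Some other genes of the same steps were also called higher, beside 2.69% of all genes called higher and 0.311% called lower. Among 9 tested desaturases and electron donors, 3 rose and 0 fell, namely Fads3 (above), Cyb5b and Cyb5r3. Cyb5b, the cytochrome b5 of the outer mitochondrial membrane, rose by 0.84 (SE 0.10, adjusted p = 0.000335, limma), from 195 ± 32.5 to 350 ± 65.6 (SD, n = 6). Cyb5r3, a reductase that passes electrons from NADH to cytochrome b5, rose by 0.27 (SE 0.06, adjusted p = 0.0372), from 146 ± 13.0 to 175 ± 8.23. Cyb5a, the cytochrome b5 of the endoplasmic reticulum and the classical electron donor of the desaturases, was not called, at -0.13 (adjusted p = 0.576). The median log2 change of the 9 was 0.09.

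After condensation by an Elovl enzyme, a round of elongation runs through Hsd17b12 (reduction), the Hacd enzymes (dehydration) and Tecr (a second reduction). Of 8 genes tested in the elongation list 2 rose and 0 fell, and these were the 2 reductases. Tecr rose by 0.85 (SE 0.07, adjusted p = 9.44e-06, limma), from 169 ± 11.7 to 306 ± 31.6 (SD, n = 6), and Hsd17b12 by 0.86 (SE 0.11, adjusted p = 0.000514), from 211 ± 37.0 to 386 ± 84.8. Their pravastatin values were all above their vehicle values. The dehydratases Hacd1, Hacd2 and Hacd3 were at -0.17, -0.33 and -0.11 and were not called (adjusted p = 0.489, 0.251 and 0.650), and Hacd2 was called lower with culture as a block, as were 8.13% of all genes. The median of the 8 was 0.01.

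Among 7 other long and very long chain acyl-CoA synthetases none was called, with a median of -0.13, and with culture as a block 1 was lower, Slc27a3 (-0.25). None of 12 acyl-CoA binding proteins and thioesterases was called (median -0.01), and the block called 2 lower. Of 5 genes of fatty acid binding and uptake, 1 rose. It was Mfsd2a, a carrier of lysophosphatidylcholine with docosahexaenoic acid at the blood-brain barrier, which went from 14.6 ± 2.76 to 25.7 ± 3.80 (SD, n = 6), a change of 0.80 (SE 0.14, adjusted p = 0.00512, limma). The fatty acid binding proteins Fabp5 (0.23, adjusted p = 0.185) and Fabp7 (-0.27, adjusted p = 0.202) were not called, and with culture as a block Fabp5 was higher and Fabp7 lower. These counts stand beside 2.69% called higher and 0.311% called lower of all genes, and those with the block beside 10.5% and 8.13%.

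**Figure D5:**
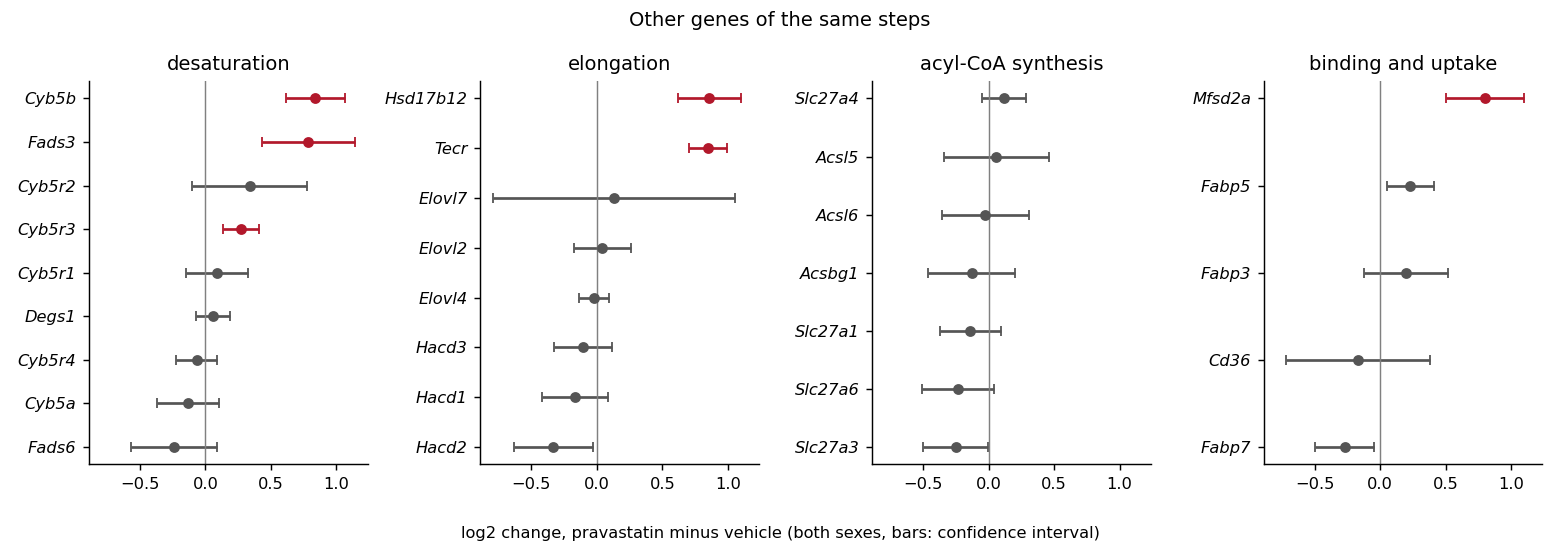
Log2 change, pravastatin minus vehicle over both sexes, with 95% intervals, of the tested genes in 4 of the lists of related genes, with called genes in red. In red are Cyb5b, Fads3 and Cyb5r3 (desaturation), Hsd17b12 and Tecr (elongation) and Mfsd2a (uptake), and none of the 7 other synthetases.

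The genes with the most similar values to each of the 10 were found by Pearson correlation of log2 values over the 12 libraries, which share the treatment and the split of female cultures 2 and 3, and are given as a description. For Scd1 they were Hmgcs1 (r = 0.997), an enzyme of cholesterol synthesis, and Acss2 (0.994), which activates acetate. Elovl6 was close to Cyp51 (0.995), the lanosterol demethylase. Elovl1 was closest to Ebp (0.988), a sterol isomerase, and Fasn (0.985), the fatty acid synthase, and Acsl3 to Pank1 (0.989), a pantothenate kinase, and Hmgcs1 (0.989). Elovl5 was closest to Avpi1 (0.993) and Rdh11 (0.991), and Acsl4 to Gm3555 (0.991) and Spag7 (0.983). Fads1 was closest to Slc46a3 (0.993) and Tcf20 (0.987), Fads2 to Btd (0.990) and Shisa4 (0.984), and Scd2 to Epha10 (0.972) and Gm6223 (0.963). Acsl1 had the lowest correlations of the 10, with Pdf (0.899) and Yars (0.883).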

How the data were processed

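RNA was measured by stranded total RNA sequencing (TruSeq) on 2 lanes. The authors merged the lanes and aligned the reads with TopHat2 2.1.1 (GRCm38). HTSeq then gave reads per gene on an annotation merged by Cuffmerge from Cufflinks assemblies, and edgeR served for their tests. The deposited signal values are reads divided by an effective library size, sum to 962669 to 1052479 per library, and gave whole reads (within 0.001 read) for 100% of values, so counts could be recovered. The 5 deposited columns of means, fold changes, p-values and false discovery rates were not used. The 6 vehicle libraries also belong to another deposited study. In 21 cases gene symbols that had become dates were restored.

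Values were tested as log2(value + 0.5) with limma 3.58.1 (trend, R 4.3.3), with sex as covariate, for genes with a value above 1 in 6 or more libraries (3 or more within a sex and for the interaction), with Benjamini-Hochberg adjustment and calls at 0.05. A fold change on this scale understates the change of low genes. Paralogs were compared by a two-sided exact sign-flip test over the 6 cultures, with the range over cultures as the 96.9% interval. Same-numbered libraries of a sex were taken as pairs because their residuals correlated at 0.179 to 0.871 (6 pairs), against -0.838 to 0.425 for other numbers (12 pairs), and their sample codes begin alike. The labels do not state the pairs. The ranges overlap at female vehicle 3, which correlated at 0.428 with pravastatin 3 and at 0.425 with pravastatin 2, so its pair is the least certain. Female pravastatin 3 correlated at -0.0707 with vehicle 1 and at -0.181 with vehicle 2. In males the same-numbered values were 0.179 to 0.303, against -0.196 to -0.0193. Levels per kilobase used the union of all annotated exons of a gene in GENCODE vM21. For some genes that union is much longer than the longest transcript, which lowers their level per kilobase. Alternatives were edgeR 4.0.16 and DESeq2 1.42.0 on recovered reads, other pseudocounts, filters and scalings, the culture block, no sex term, and leaving out libraries. The limma, edgeR and DESeq2 fits over both sexes, with and without the block, were tried on simulated counts that held no differences between cultures. The fits within a sex and the interaction were not simulated, and the sign-flip test was checked only on short made-up sets of numbers. The 10 genes and the lists were chosen with earlier results of these data known. Named genes are the 10, homologs and up to 4 genes with the smallest p of each list, Gfap, Mbp and Ccnd1, and the 2 most similar genes of each. Outside these rules, some cell type markers were named because they were called with or without the block. Cyb5a, Hacd3, Gm11295 and Utp14b were also named outside them. Some genes and motifs that these rules cover are not reported here.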

Additional observations from a re-analysis of the deposited data

How the results depend on the processing

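Over both sexes the same 9 genes were called, and Acsl1 was not, under all 26 alternatives, and in males under all 16. The interaction called 0 of the 10 under all 22. In females the count of 2 changed to 0 when libraries were rescaled to the same sum, to 1 with edgeR and RLE factors, to 7 with DESeq2, and to 9 with the culture block by limma or by edgeR, and ran from 0 to 2 when each library was left out. The block changed no other count of the 10 genes. Of the 8 paralog pairs, 7 rather than 6 passed with a pseudocount of 1. Acsl1 in males, which was not called, changed direction, from 0.07 to -0.0072 after rescaling and to -0.0544 without male pravastatin replicate 3 (-0.0544 to 0.199 when each library was left out). The uncalled difference of Fads1 and Fads2 (0.02) also changed sign, to -0.0559 without female cultures 2 and 3, and without either of them. No called result did. Among all genes tested over both sexes, 406 were higher and 47 lower, against 1583 and 1227 with the replicate block, 1523 and 1333 with the block by edgeR, 614 and 228 with DESeq2, 311 and 142 after rescaling, 1332 and 1209 without female cultures 2 and 3, and 1970 and 1895 with both. With 6 cultures the sign-flip test cannot go below 0.03125, and Acsl1, with 115 to 217 reads per library, was measured with the least depth. No value in 30 groups of 6 stood out by Dixon's test.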
